A study of Oncorhynchus mykiss with 30 samples.

Results

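The array carried 224 probes that the design had added as a numbered batch of candidates, and 217 of them are described here out of the 60195 non-control probes of the series. They were chosen by the probe name of the batch, and 7 numbers of the batch were left out by the same rule, which uses the names and numbers alone. Of the 217 probes, 53 carried a word as their name, 7 carried a RefSeq accession of which 4 were found in the RefSeq gene table of the assembly USDA_OmykA_1.1, and the others carried only the name of a sequence read or of an accession, which the files do not pair with a gene. This gave 57 probes with a gene name. In 15 of these names the text was cut short ("carnitine", "fatty", "phosphoenolpyruvate"), and such names are given as the files have them and were not completed. The named probes were sorted by function from their names, except GR, whose name is ambiguous and which was placed with the antioxidant probes around it in the batch. The names "delta", "Slow" and "slow" leave the function open, so their places in the lipid and muscle groups are uncertain. The groups were 11 probes of lipid metabolism and transport, 6 of glucose metabolism and transport, 7 antioxidant probes, 7 nuclear receptors and transcription factors, 10 of protein breakdown, 10 of muscle and development, 4 known through RefSeq and 2 whose name gives no function.

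The RNA came from gonads of an all-male population of rainbow trout (Oncorhynchus mykiss) exposed for 76 days to 17α-ethynylestradiol (EE2), a synthetic oestrogen, at a nominal 10, 1, 0.1 or 0.01 μg/L, or to the solvent alone, which is the control. Fish were 136 days post-fertilisation at sampling. With 3 tanks a concentration and 2 pools of gonads from each, every group had 6 arrays (30 in all), and differences between single fish are averaged within a pool. By the submitters' own measurement, EE2 at the lowest nominal concentration was under the detection limit of the assay. The samples are labelled testis. Of the marker lists for testis, ovary and germ cells, only Wnt4 and a name cut to "cathepsine" occur among the candidates. The label could therefore not be checked on the candidates. The paper's earlier histology found testes in the controls, intersex gonads at the lower concentrations and sex reversal at the highest ones. Its authors caution that expression differences at those highest concentrations may be differences between male and female gonads. Whether the differences of the candidates follow this change of the gonad was not tested.

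Most of the candidates with a gene name belong to everyday cell physiology. Glucose enters cells through transporters of the Glut family, fatty acids reach the mitochondria bound to carnitine, and hydrogen peroxide and superoxide are removed by catalase, glutathione peroxidases and superoxide dismutases. Proteins are broken down by the proteasome, by calpains and by autophagy, in which LC3 coats the forming vesicle. PPARs and retinoic acid receptors are nuclear receptors that switch genes on when they bind fatty acids or retinoic acid, and retinoic acid and Wnt4 are both known from mammals to take part in the development of the gonad. EE2 acts through oestrogen receptors, and exposed male trout are known to develop ovarian tissue in the testis. The paper cautions that a direct effect cannot be established after so long an exposure. It adds that feedback through the hypothalamus and pituitary or other systemic responses may take part. As the samples are bulk tissue, a lower signal from fewer cells of a type cannot be told apart from less RNA per cell.

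Differences from the control were widespread among the candidates and grew in number with the concentration. The moderated F test of limma over the 4 concentrations passed an adjusted p of 0.05 for 118 of the 217 probes, against 49.7% of all probes on the array. Against the control, 30 candidates differed at 0.01 μg/L, 74 at 0.1 μg/L, 102 at 1 μg/L and 103 at 10 μg/L, which is 13.8%, 34.1%, 47.0% and 47.5% of them, where 7.91%, 27.2%, 40.9% and 44.2% of all probes differed. The shares of the candidates lay above those of the array in each comparison with the control, closest at 10 μg/L and, in proportion, furthest at 0.01 μg/L. The 30 candidates at 0.01 μg/L became 19 without control replicate 3 or EE2_0.01 replicate 3 and 49 without control replicates 2 and 6 together. Lower values outnumbered higher ones. At 0.01 μg/L 6 candidates were higher and 24 lower, against 2.83% and 5.09% of all probes. At 0.1 μg/L 29 were higher and 45 lower, against 12.8% and 14.3%. At 1 μg/L the counts were 32 and 70, against 19.8% and 21.2%, and at 10 μg/L 39 and 64, against 21.7% and 22.5%. Of the 57 probes with a gene name, 6, 16, 29 and 31 differed at the 4 concentrations, which is 10.5%, 28.1%, 50.9% and 54.4%. At 0.1 μg/L this share lay close to the 27.2% of all probes. The named probes called at 0.01 μg/L were all lower. The median log2 difference of the 217 candidates was -0.09, -0.05, -0.21 and -0.17, while that of all probes lay between -0.03 and -0.0030. With each array scaled to its 75th percentile in place of quantile normalisation, the median of all probes moved to -0.09, -0.08, -0.28 and -0.29. The median of the candidates was not computed under that scaling, so these values cannot be set against the candidate medians above. Under it 4, 24, 28 and 33 candidates were called higher and 18, 45, 78 and 78 lower at the 4 concentrations. The shares of all probes called higher and lower under that scaling were not computed, so these counts cannot be set against the array.

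**Figure D1:**
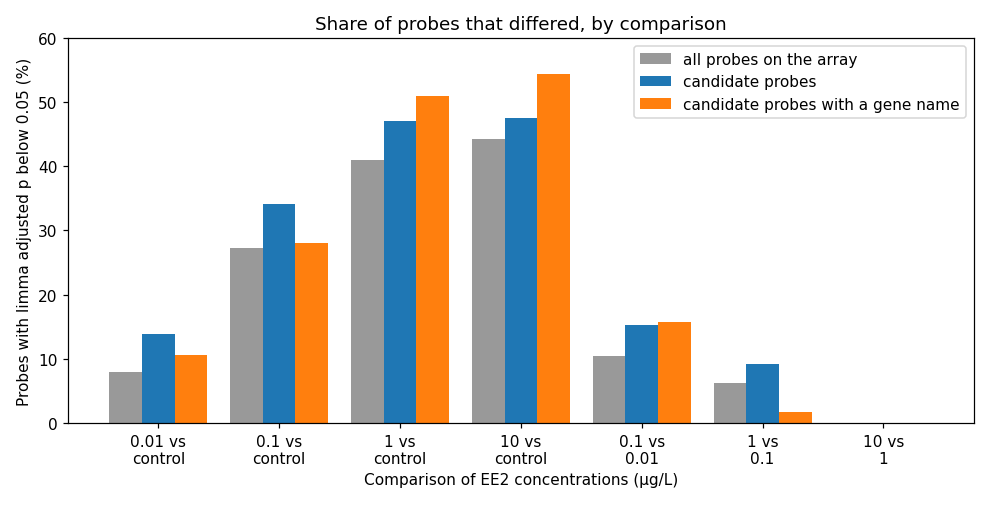
Share of probes with a limma adjusted p below 0.05 (y axis, percent) in 7 comparisons of EE2 concentrations in μg/L (x axis), for all 60195 probes (grey), the 217 candidates (blue) and the 57 candidates with a gene name (orange). The candidates lie above all probes in the 4 comparisons with the control, and none of them differed between 1 and 10 μg/L.

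The concentration steps were less populated. Between 0.01 and 0.1 μg/L 33 candidates differed, which is 15.2%, against 10.5% of all probes (14 were higher, against 6.03%, and 19 lower, against 4.45%). Of these, 9 had a gene name, which is 15.8% of the 57. Between 0.1 and 1 μg/L 20 candidates differed, against 6.26% of all probes (3 were higher, against 1.6%, and 17 lower, against 4.66%). The lipoprotein probe was the 1 with a gene name, which is 1.75% of the 57 and below the share of all probes. The count of 20 became 12, 11 and 8 without EE2_0.1 replicate 4, EE2_0.1 replicate 6 or EE2_1 replicate 3, and 30 without EE2_0.1 replicate 2. Between 1 and 10 μg/L no candidate passed by limma, where 0.00332% of all probes did (0.00166% in each direction), and 9 candidates and 2887 of all probes had an unadjusted p below 0.05.

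Between 72.4% and 85.3% of the candidates (median 79.0%) were well above background on an array, against 75.6% to 88.2% (median 81.5%) of all probes. Well above background is the scanner software's own mark of detection, and no candidate spot was saturated. On all 30 arrays, 131 of the 217 and 37 of the 57 named probes were detected, and 15 of the 217 were detected on none. The 75th percentile of the signal lay between 358.5 and 1238 intensity units per array, lowest in a control array. The arrays control replicate 4 and EE2_0.1 replicate 1 were dim over the middle 4 of the 16 blocks of rows of the array, where 12.3% and 15.4% of the probes lay over 4-fold below their group's median, compared with at most 0.770% on the other 28 arrays. The middle holds 62 candidates. EE2_10 replicate 4 was the array of its group closest to the control mean for 53 of the 103 candidates called at 10 μg/L, and control replicate 6 was the control closest to the 10 μg/L mean for 48 of them. Control replicate 2 followed with 20, and control replicate 4 had 17. EE2_10 replicate 4 and control replicates 2 and 6 were picked out because they lay near the other group for part of these candidates. Where they did, the difference grows without them by construction, and a call gained in this way is no support for a difference. For other probes the difference shrank without them. Among the 57 named probes, leaving out EE2_10 replicate 4 gained 1 call at 10 μg/L and lost 3. Values without these arrays are given below where a call of a named probe was lost, and for some where one was gained.

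**Figure D2:**
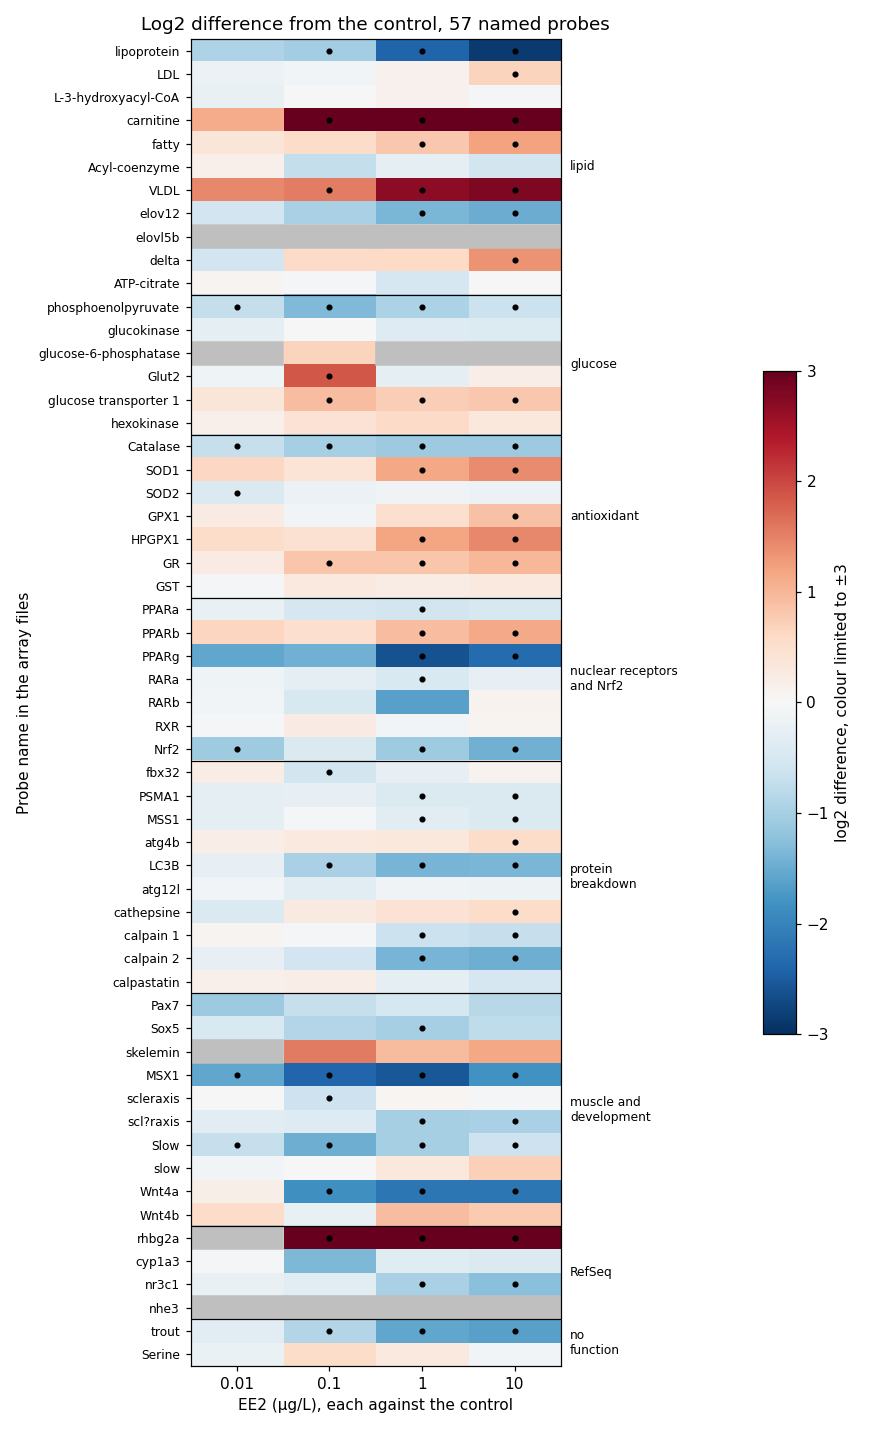
Log2 difference from the control (colour, limited to ±3, red higher and blue lower) at the 4 concentrations of EE2 in μg/L (columns) for the 57 candidates with a gene name (rows, by function), with dots for a limma adjusted p below 0.05 and grey where no array of either group was well above background. The rhbg2a, carnitine and VLDL rows are the deepest red and lipoprotein, PPARg, MSX1 and Wnt4a the deepest blue. The RARb cell at 10 μg/L includes 1 spot marked as an outlier.

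Among the lipid probes, carnitine, VLDL and fatty rose with EE2 and lipoprotein and elov12 fell. The lipid group had 0, 3, 5 and 7 of its 11 probes past the threshold at the 4 concentrations, against 7.91%, 27.2%, 40.9% and 44.2% of all probes. Of those, 2, 3 and 5 were higher and 1, 2 and 2 lower at 0.1, 1 and 10 μg/L. The median log2 difference of the group, 0.06, -0.02, 0.14 and 0.12, stayed close to that of all probes.

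The probe named "carnitine", after the carrier of fatty acids into mitochondria, had a median log2 normalised intensity (lowest to highest of 6 arrays) of 5.65 (4.98 to 6.51) in the control, 6.71 (6.18 to 7.66) at 0.01 μg/L, 8.98 (8.58 to 9.81) at 0.1 μg/L, 9.32 (9.06 to 9.63) at 1 μg/L and 8.25 (7.81 to 11.11) at 10 μg/L. Every array at 0.1 μg/L and above lay above every control, and neither step above 0.1 μg/L passed the test. The log2 difference from the control was 3.39 ± 0.39 (SE, adjusted p = 8.71e-08) at 0.1 μg/L, 3.66 ± 0.39 (SE, adjusted p = 1.96e-08) at 1 μg/L and 3.02 ± 0.39 (SE, adjusted p = 5.05e-07) at 10 μg/L, and the step from 0.01 to 0.1 μg/L alone was 2.28 ± 0.39 (SE, adjusted p = 0.000115). The highest value at 10 μg/L, 11.11 in replicate 2, came from a spot marked as an outlier by the scanner software. Without that spot the difference at 10 μg/L was 2.54 ± 0.28 (adjusted p = 4.27e-08), and the difference at 0.01 μg/L, 1.11 ± 0.39 (SE, adjusted p = 0.0765) with it, passed as 1.11 ± 0.26 (adjusted p = 0.00882). With normexp background correction the differences at 0.1 and 10 μg/L shrank to 2.25 and 1.71.

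The VLDL probe, named after the particle that carries fats from the liver, was near background in the control. The log2 intensities were 3.65 (2.42 to 6.04) in the control, 5.69 (3.63 to 6.37) at 0.01 μg/L, 5.46 (4.61 to 6.31) at 0.1 μg/L, 6.68 (5.93 to 7.21) at 1 μg/L and 6.87 (5.92 to 7.39) at 10 μg/L. It was detected on 3 of 6 control arrays and on 6 of 6 at 0.1 μg/L and above, and control replicates 2 and 6, at 5.23 and 6.04, were the high controls. The difference was 1.53 ± 0.49 (SE, adjusted p = 0.0210) at 0.1 μg/L, 2.69 ± 0.49 (SE, adjusted p = 8.51e-05) at 1 μg/L and 2.80 ± 0.49 (SE, adjusted p = 4.59e-05) at 10 μg/L. At 0.1 μg/L the call was lost without control replicate 1, control replicate 4 or EE2_0.1 replicate 5 (adjusted p up to 0.0715). Without control replicates 2 and 6, chosen for lying near the exposed arrays, the difference there was 2.38 ± 0.43 (adjusted p = 9.47e-05). With normexp background correction, which compresses low signals, the 3 differences were 0.40, 1.04 and 1.08, and the first no longer passed (adjusted p = 0.140).

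The lipoprotein probe moved the other way. Log2 intensities ran at 10.33 (9.69 to 10.46) in the control, 9.28 (8.36 to 9.87) at 0.01 μg/L, 9.13 (8.28 to 10.56) at 0.1 μg/L, 7.75 (7.21 to 8.47) at 1 μg/L and 7.06 (6.54 to 8.91) at 10 μg/L. All arrays at 1 and 10 μg/L lay below every control, and the probe was the named candidate that also stepped down between 0.1 and 1 μg/L, with a difference of -1.34 ± 0.36 (SE, adjusted p = 0.0230). The differences from the control were -2.39 ± 0.36 (SE, adjusted p = 5.14e-06) at 1 μg/L and -2.87 ± 0.36 (SE, adjusted p = 3.12e-07) at 10 μg/L, and -1.05 ± 0.36 (SE, adjusted p = 0.0274) at 0.1 μg/L. That last call was lost without control replicate 1 or 3 or EE2_0.1 replicate 2 or 6 (adjusted p up to 0.0772). EE2_10 replicate 4, at 8.91, was the highest array of its group, and the difference without it was -3.18 ± 0.32 (adjusted p = 1.26e-08).

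The other lipid probes changed less. They are given outside the rule for named genes, to account for the group. The "fatty" probe was higher by 0.82 ± 0.23 (SE, adjusted p = 0.00577) at 1 μg/L and 1.20 ± 0.23 (SE, adjusted p = 0.000131) at 10 μg/L. The elov12 probe, whose full name in the files adds Salmo salar, was lower, at -1.36 ± 0.47 (SE, adjusted p = 0.0216) and -1.49 ± 0.47 (SE, adjusted p = 0.0116). It lies low on EE2_0.1 replicate 1 (3.37), 1 of the arrays with a dim middle. Without both of these arrays its differences were -1.55 ± 0.33 (adjusted p = 0.000469) and -1.67 ± 0.33 (adjusted p = 0.000184), and the call at 1 μg/L was lost without control replicate 5 or EE2_1 replicate 6 (adjusted p up to 0.0663) and with normexp background correction (-0.69, adjusted p = 0.0657). The "delta" and LDL probes passed only at 10 μg/L, with 1.34 ± 0.44 (SE, adjusted p = 0.0140) and 0.66 ± 0.25 (SE, adjusted p = 0.0332). The "delta" call was lost without control replicate 1 and the LDL call without control replicate 1 or 2 or EE2_10 replicate 4 or 6. Without control replicates 2 and 6 together LDL was at 0.64 ± 0.29 (adjusted p = 0.0717). L-3-hydroxyacyl-CoA and ATP-citrate did not pass at any concentration, and elovl5b was not well above background on any array. The Acyl-coenzyme probe also did not pass with all arrays. It read 4.08 on control replicate 4 and 1.86 on EE2_0.1 replicate 1, both dim in the middle, and without them it was lower, at -0.75 ± 0.19 (adjusted p = 0.00262) at 1 μg/L and -0.99 ± 0.19 (adjusted p = 0.000155) at 10 μg/L. As the control left out was the lowest, these differences move down by construction, and the calls gained are no support for a difference.

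In the glucose group, the phosphoenolpyruvate probe fell and glucose transporter 1 rose, and glucokinase, hexokinase and glucose-6-phosphatase did not pass. Of the 6 probes 1, 3, 2 and 2 passed at the 4 concentrations, against 7.91%, 27.2%, 40.9% and 44.2% of all probes. Phosphoenolpyruvate is the metabolite at the branch of glycolysis and gluconeogenesis, and the probe that carries its name had log2 intensities of 10.88 (10.55 to 11.28) in the control, 10.25 (9.68 to 10.41) at 0.01 μg/L, 9.59 (8.90 to 10.14) at 0.1 μg/L, 9.94 (9.31 to 10.29) at 1 μg/L and 10.23 (9.87 to 10.61) at 10 μg/L. All 6 arrays lay below every control at 0.01, 0.1 and 1 μg/L, and 5 of 6 at 10 μg/L. The differences were -0.72 ± 0.21 (SE, adjusted p = 0.0317), -1.32 ± 0.21 (SE, adjusted p = 1.94e-05), -0.94 ± 0.21 (SE, adjusted p = 0.000756) and -0.64 ± 0.21 (SE, adjusted p = 0.0155), so the mean was lowest at 0.1 μg/L. The call at 0.01 μg/L was lost without control replicate 1, 4 or 5 or EE2_0.01 replicate 2 or 3 (adjusted p up to 0.0750).

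Glucose transporter 1 supplies glucose to most cell types. Its probe had log2 intensities of 6.93 (6.65 to 7.95) in the control, 7.34 (6.97 to 7.94) at 0.01 μg/L, 7.97 (7.71 to 8.28) at 0.1 μg/L, 7.80 (7.62 to 8.06) at 1 μg/L and 7.84 (7.34 to 8.41) at 10 μg/L. At 0.1 μg/L and above, replicate 4 at 7.95 was the 1 control that overlapped the exposed arrays, and at 0.01 μg/L other controls did too. The probe was higher by 0.93 ± 0.20 (SE, adjusted p = 0.000646) at 0.1 μg/L, 0.73 ± 0.20 (SE, adjusted p = 0.00392) at 1 μg/L and 0.80 ± 0.20 (SE, adjusted p = 0.00168) at 10 μg/L. Glut2, a transporter of liver and pancreas in mammals, was detected on 1 of 6 control arrays, on 3 of 6 at 0.1 μg/L and on 0 of 6 at 1 μg/L. It passed only at 0.1 μg/L, with 1.86 ± 0.66 (SE, adjusted p = 0.0370), and lost the call in 7 of the 30 refits that left out 1 array (adjusted p up to 0.0943, without control replicate 3). With normexp background correction its difference was 0.29 (adjusted p = 0.309), and without control replicates 2 and 6 it was 1.41 ± 0.74 (adjusted p = 0.158). Glucokinase and glucose-6-phosphatase were each detected on 1 of the 30 arrays, and hexokinase, detected on 4 or 5 arrays of each group, ran from 0.15 ± 0.36 (SE, adjusted p = 0.858) at 0.01 μg/L to 0.57 ± 0.36 (SE, adjusted p = 0.209) at 1 μg/L.

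**Figure D3:**
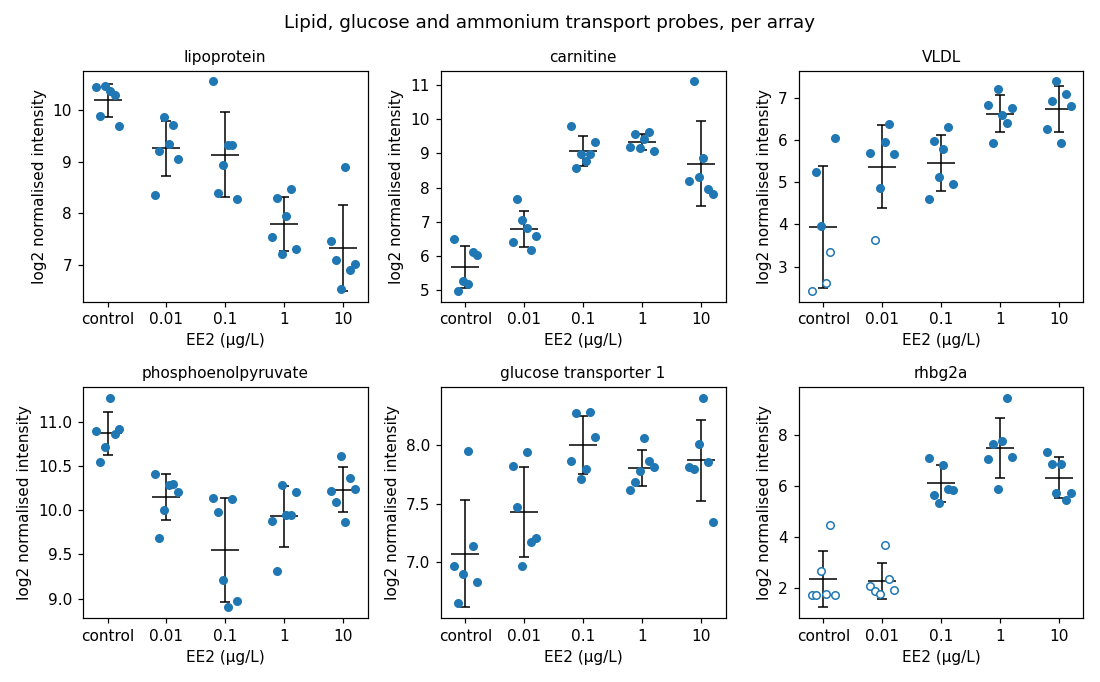
Log2 normalised intensity (y axis) of 6 probes against EE2 in μg/L (x axis), 1 point per array with 6 arrays a group, filled where the probe was well above background and open where not, with the group mean and SD in black. All 6 arrays at 0.1, 1 and 10 μg/L lie above every control for carnitine and rhbg2a, and all at 1 and 10 μg/L lie below every control for lipoprotein.

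Among the candidates with a gene name, rhbg2a was the 1 that was undetected on every control array and detected on every array at 10 μg/L. It encodes a Rhesus glycoprotein, a family of ammonium transporters of fish gill and kidney epithelia, and was named through its RefSeq accession. The medians (lowest to highest) were 1.76 (1.74 to 4.50) in the control, 2.01 (1.78 to 3.69) at 0.01 μg/L, 5.87 (5.33 to 7.13) at 0.1 μg/L, 7.41 (5.90 to 9.49) at 1 μg/L and 6.31 (5.46 to 7.37) at 10 μg/L. The probe was well above background on 0 of 6 arrays in the control and at 0.01 μg/L and on 6 of 6 at 0.1, 1 and 10 μg/L, with no overlap. The control level is therefore only a bound, set at the lowest signal of a detected probe on each array. Against it rhbg2a was at least 7.88-fold higher at 0.1 μg/L (adjusted p = 1.56e-06), at least 20.6-fold at 1 μg/L (adjusted p = 5.66e-09) and at least 9.24-fold at 10 μg/L (adjusted p = 4.84e-07). Here and below, the adjusted p beside a bound is that of the fitted limma difference, and the bound itself was not tested. Without EE2_1 replicate 5 the bound at 1 μg/L fell to 15.7-fold. The step from 0.01 to 0.1 μg/L had an adjusted p of 3.83e-06, and the steps above it did not pass. With normexp background correction the fitted log2 differences, 3.76, 5.14 and 3.99 here, were 0.99, 1.89 and 1.13, all past the threshold.

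Of the other 3 RefSeq probes, nr3c1, the glucocorticoid receptor that binds cortisol, fell. Across the groups it read 12.13 (11.28 to 12.39) in the control, 11.72 (11.19 to 12.03) at 0.01 μg/L, 11.60 (11.39 to 11.74) at 0.1 μg/L, 10.94 (10.65 to 11.28) at 1 μg/L and 10.49 (10.22 to 11.37) at 10 μg/L. At 1 μg/L all arrays lay below every control, and at 10 μg/L 5 of 6 did. Control replicates 2 and 6, at 11.28 and 11.44, were the low controls. The difference was -0.98 ± 0.20 (SE, adjusted p = 0.000309) at 1 μg/L and -1.26 ± 0.20 (SE, adjusted p = 1.25e-05) at 10 μg/L. Without control replicates 2 and 6 it was -1.26 ± 0.19 (adjusted p = 7.58e-06) and -1.55 ± 0.19 (adjusted p = 3.54e-07), and the value at 0.1 μg/L, -0.34 ± 0.20 (SE, adjusted p = 0.222) with them, passed as -0.63 ± 0.19 (adjusted p = 0.0141). As these controls were chosen for lying near the exposed arrays, the call gained is no support for a difference. The sodium/proton exchanger nhe3 was not well above background on any array. The cytochrome P450 cyp1a3, a detoxifying enzyme also called CYP1A1 in the gene table, did not pass with all arrays. It read 4.23 on control replicate 4 and 1.86 on EE2_0.1 replicate 1, the arrays with a dim middle, against 8.04 to 10.01 on the other controls. Without both arrays cyp1a3 was lower, at -1.13 ± 0.39 (adjusted p = 0.0289) at 0.1 μg/L, -1.12 ± 0.37 (adjusted p = 0.0174) at 1 μg/L and -1.20 ± 0.37 (adjusted p = 0.0106) at 10 μg/L. Leaving out the lowest control moves the differences at 1 and 10 μg/L down by construction. The calls gained in this way are no support for a difference.

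The antioxidant probes divided. Catalase was lower at all 4 concentrations, with a weak call at 0.01 μg/L, while SOD1, HPGPX1 and GR rose at 1 and 10 μg/L. Of the 7 probes 2, 2, 4 and 5 passed at the 4 concentrations, against 7.91%, 27.2%, 40.9% and 44.2% of all probes. Of the 7, 0, 1, 3 and 4 passed as higher, against 2.83%, 12.8%, 19.8% and 21.7% of all probes. The median log2 difference of the group was 0.24, 0.30, 0.48 and 0.87. Without GR, whose place in the group is uncertain, 2, 1, 3 and 4 of 6 passed, with 0, 0, 2 and 3 higher, and the median was 0.10, 0.11, 0.35 and 0.59. Catalase, which breaks down hydrogen peroxide in peroxisomes, had log2 intensities of 11.44 (11.20 to 12.18) in the control, 10.92 (10.06 to 11.15) at 0.01 μg/L, 10.53 (9.95 to 11.30) at 0.1 μg/L, 10.39 (10.27 to 10.68) at 1 μg/L and 10.47 (10.18 to 10.61) at 10 μg/L. All 6 arrays lay below every control at 0.01, 1 and 10 μg/L and 5 of 6 at 0.1 μg/L. The differences were -0.70 ± 0.20 (SE, adjusted p = 0.0249), -0.99 ± 0.20 (SE, adjusted p = 0.000293), -1.09 ± 0.20 (SE, adjusted p = 6.48e-05) and -1.08 ± 0.20 (SE, adjusted p = 6.06e-05). The first call was lost without control replicate 4 or 5 or EE2_0.01 replicate 1 or 3 (adjusted p up to 0.0809). It was also lost with the pools of each tank averaged (adjusted p = 0.0737).

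SOD1, the superoxide dismutase of the cytosol, had log2 intensities of 13.19 (12.64 to 14.00) in the control, 13.83 (13.26 to 14.32) at 0.01 μg/L, 13.62 (12.88 to 14.31) at 0.1 μg/L, 14.44 (13.92 to 14.67) at 1 μg/L and 14.60 (14.21 to 14.99) at 10 μg/L. Every array at 10 μg/L and 5 of 6 at 1 μg/L lay above every control. It was higher by 1.16 ± 0.24 (SE, adjusted p = 0.000329) at 1 μg/L and 1.41 ± 0.24 (SE, adjusted p = 3.00e-05) at 10 μg/L. The HPGPX1 probe, of the glutathione peroxidases by its name, had log2 intensities of 12.70 (12.60 to 14.13) in the control, 13.79 (13.05 to 14.31) at 0.01 μg/L, 13.59 (12.97 to 14.24) at 0.1 μg/L, 14.34 (13.98 to 14.69) at 1 μg/L and 14.71 (13.88 to 14.83) at 10 μg/L. In the control, replicates 2 and 6 read 14.13 and 14.11 and the other 4 between 12.60 and 12.75, so that 2 controls overlapped the exposed groups. HPGPX1 was higher by 1.18 ± 0.29 (SE, adjusted p = 0.00179) at 1 μg/L and 1.45 ± 0.29 (SE, adjusted p = 0.000202) at 10 μg/L.

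Without control replicates 2 and 6 the differences of SOD1 and HPGPX1 passed at all 4 concentrations. For HPGPX1 they were then 1.04 ± 0.26 (adjusted p = 0.00611) at 0.01 μg/L, 0.93 ± 0.26 (adjusted p = 0.00692) at 0.1 μg/L and 1.94 ± 0.26 (adjusted p = 9.57e-07) at 10 μg/L. For SOD1 they were 0.91 ± 0.25 (adjusted p = 0.0111), 0.70 ± 0.25 (adjusted p = 0.0309) and 1.70 ± 0.25 (adjusted p = 2.77e-06). This pair of arrays was chosen after the values had been seen, for lying near the exposed groups, so the larger differences follow from the choice. Over the 57 named probes, leaving the pair out gained 8, 8, 3 and 4 calls at the 4 concentrations and lost 0, 3, 0 and 2.

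The GR probe rose with no overlap with the control from 0.1 μg/L on. The files do not say whether its name stands for glutathione reductase, which recycles glutathione, or for the glucocorticoid receptor. It is named outside the rule. Its log2 intensities were 7.20 (6.92 to 7.36) in the control, 7.42 (7.33 to 7.59) at 0.01 μg/L, 7.93 (7.81 to 8.29) at 0.1 μg/L, 7.99 (7.88 to 8.09) at 1 μg/L and 8.13 (7.95 to 8.55) at 10 μg/L. All arrays at 0.1, 1 and 10 μg/L lay above every control. It was higher by 0.83 ± 0.12 (SE, adjusted p = 2.77e-06), 0.82 ± 0.12 (SE, adjusted p = 2.39e-06) and 0.99 ± 0.12 (SE, adjusted p = 1.24e-07), and the step from 0.01 to 0.1 μg/L was 0.57 ± 0.12 (SE, adjusted p = 0.00104). GPX1, a glutathione peroxidase, passed at 10 μg/L with 0.87 ± 0.29 (SE, adjusted p = 0.0159), overlapped the controls in all groups, and lost the call without control replicate 3 or 5. SOD2, the mitochondrial superoxide dismutase, passed only at 0.01 μg/L, where it was lower, at -0.44 ± 0.12 (SE, adjusted p = 0.0239) with all 6 arrays below every control. That call was lost without control replicate 3 (adjusted p = 0.0659) and with the pools of each tank averaged (adjusted p = 0.0831). GST, a glutathione S-transferase, ran from -0.03 ± 0.17 (SE, adjusted p = 0.942) at 0.01 μg/L to 0.30 ± 0.17 (SE, adjusted p = 0.148) at 10 μg/L.

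**Figure D4:**
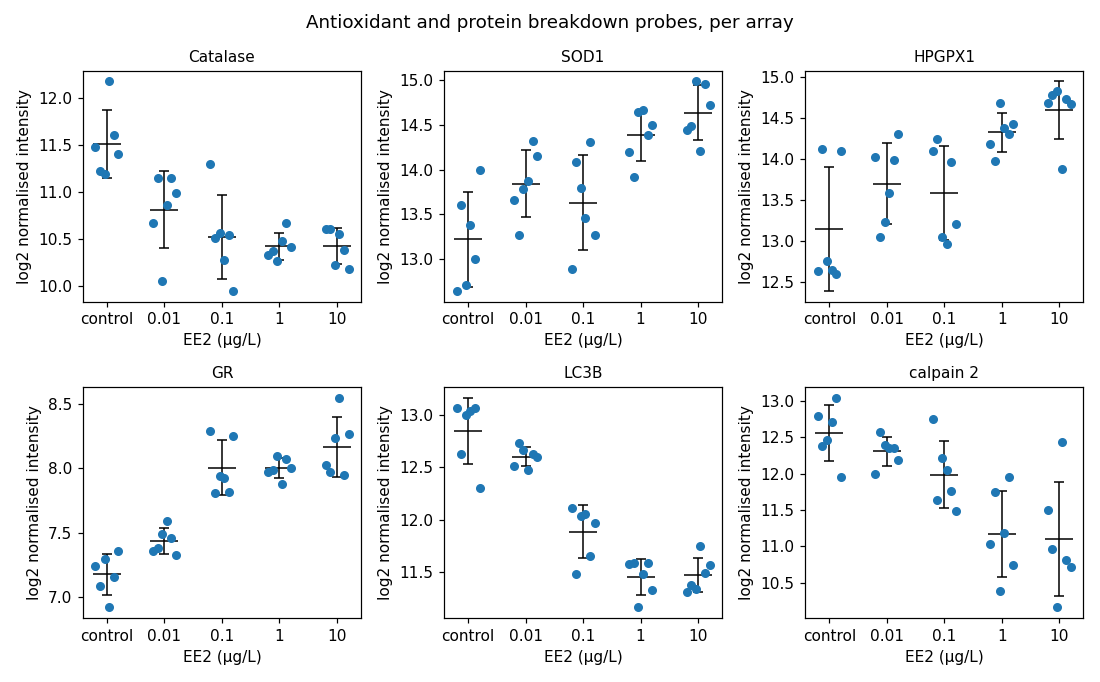
Log2 normalised intensity (y axis) of 4 antioxidant and 2 protein breakdown probes against EE2 in μg/L (x axis), 1 point per array with 6 arrays a group, all well above background, with the group mean and SD in black. Catalase and LC3B fall and SOD1, HPGPX1 and GR rise, and 2 of the 6 HPGPX1 controls lie near 14.1, apart from the other 4.

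Of the nuclear receptors and transcription factors, PPARg and Nrf2 fell, PPARb rose, and RARb passed, as lower, only without 1 marked spot. Of the 7 probes 1, 0, 5 and 3 passed at the 4 concentrations, against 7.91%, 27.2%, 40.9% and 44.2% of all probes. PPARg, the receptor that drives fat cell formation in mammals, was detected on 5 of 6 control arrays, on 1 of 6 at 0.01 μg/L and on 0 of 6 at 0.1, 1 and 10 μg/L. The log2 intensities were 3.85 (3.14 to 8.01) in the control, 2.56 (1.67 to 6.73) at 0.01 μg/L, 3.12 (2.40 to 3.98) at 0.1 μg/L, 1.70 (1.66 to 3.21) at 1 μg/L and 2.45 (1.66 to 2.64) at 10 μg/L. Both single high arrays, control replicate 4 at 8.01 and EE2_0.01 replicate 2 at 6.73, stood apart from their groups. As a bound with all 6 controls, PPARg was at least 2.16-fold lower at 1 μg/L (adjusted p = 0.00274) and at least 2.79-fold lower at 10 μg/L (adjusted p = 0.00659). Without control replicate 4 these bounds fell to 1.34-fold and 1.73-fold. The fitted log2 differences without it went from -2.61 to -1.92 ± 0.57 (adjusted p = 0.00884) and from -2.31 to -1.62 ± 0.57 (adjusted p = 0.0239). With normexp background correction they were -0.61 and -0.59. Neither PPARg call passed by Scheffé's criterion (adjusted p = 0.0672 at 1 μg/L and 0.131 at 10 μg/L). In this group that criterion also ended the calls of PPARb, Nrf2, PPARa and RARa at 1 μg/L and of Nrf2 at 0.01 μg/L. The PPARb and Nrf2 calls at 10 μg/L stayed.

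PPARb, a receptor for fatty acids found in most tissues, had log2 intensities of 7.46 (7.16 to 8.50) in the control, 8.33 (7.71 to 8.89) at 0.01 μg/L, 8.19 (7.68 to 8.70) at 0.1 μg/L, 8.59 (8.19 to 8.97) at 1 μg/L and 8.90 (7.94 to 9.37) at 10 μg/L. Control replicates 2 and 6 were again the high controls, at 8.18 and 8.50. PPARb was higher by 0.93 ± 0.25 (SE, adjusted p = 0.00435) at 1 μg/L and 1.15 ± 0.25 (SE, adjusted p = 0.000569) at 10 μg/L, and 5 of 6 arrays at 10 μg/L lay above every control. Without the 2 controls PPARb was higher by 0.97 ± 0.25 (adjusted p = 0.00816) at 0.01 μg/L and 1.48 ± 0.25 (adjusted p = 2.50e-05) at 10 μg/L. These gains follow from the choice of the controls left out. Nrf2, the regulator of antioxidant genes, had log2 intensities of 10.54 (10.21 to 11.38) in the control, 9.66 (9.17 to 9.87) at 0.01 μg/L, 10.27 (8.93 to 11.03) at 0.1 μg/L, 9.52 (9.12 to 10.08) at 1 μg/L and 8.87 (8.48 to 10.86) at 10 μg/L. It was lower, at -1.06 ± 0.34 (SE, adjusted p = 0.0493) at 0.01 μg/L, -1.06 ± 0.34 (SE, adjusted p = 0.0130) at 1 μg/L and -1.44 ± 0.34 (SE, adjusted p = 0.00105) at 10 μg/L, and -0.44 ± 0.34 (SE, adjusted p = 0.371) at 0.1 μg/L did not pass. The call at 0.01 μg/L was lost in 21 of the 30 refits that left out 1 array (adjusted p up to 0.124, without control replicate 5). At 10 μg/L EE2_10 replicate 4 read 10.86 against 8.48 to 9.66 on the other 5, and without it the difference was -1.77 ± 0.29 (adjusted p = 2.29e-05).

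RARb, a retinoic acid receptor, had log2 intensities of 6.55 (6.31 to 7.10) in the control, 6.53 (6.34 to 6.75) at 0.01 μg/L, 6.13 (5.75 to 6.56) at 0.1 μg/L, 4.88 (4.77 to 5.27) at 1 μg/L and 5.02 (4.08 to 16.00) at 10 μg/L. The value of 16.00 in EE2_10 replicate 3 came from the probe's only spot on that array, which the scanner software had marked as an outlier, and it widened the error of every contrast. With that spot RARb did not pass (F test adjusted p = 0.604), with -1.64 ± 1.13 (SE, adjusted p = 0.257) at 1 μg/L and 0.11 ± 1.13 (SE, adjusted p = 0.953) at 10 μg/L. Without it the 5 other arrays at 10 μg/L ran from 4.08 to 5.51, with all arrays at 1 and 10 μg/L below every control. RARb was then lower, at -1.64 ± 0.19 (adjusted p = 1.30e-07) at 1 μg/L and -1.75 ± 0.20 (adjusted p = 9.06e-08) at 10 μg/L, with a step of -1.15 ± 0.19 (adjusted p = 0.000434) between 0.1 and 1 μg/L and an F test adjusted p of 5.55e-09. Leaving out marked spots was added as an alternative after the values had been seen. RARa and PPARa passed only at 1 μg/L, where they were lower, at -0.46 ± 0.16 (SE, adjusted p = 0.0273) and -0.56 ± 0.23 (SE, adjusted p = 0.0479). These calls were lost in 5 and 18 of the 30 refits that left out 1 array, and without control replicate 4 PPARa was at -0.32 (adjusted p = 0.179). Without both arrays with a dim middle, RARa was at -0.40 ± 0.17 (adjusted p = 0.0606). RXR, the partner of these receptors, had its largest difference, 0.25 ± 0.16 (SE, adjusted p = 0.273), at 0.1 μg/L.

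**Figure D5:**
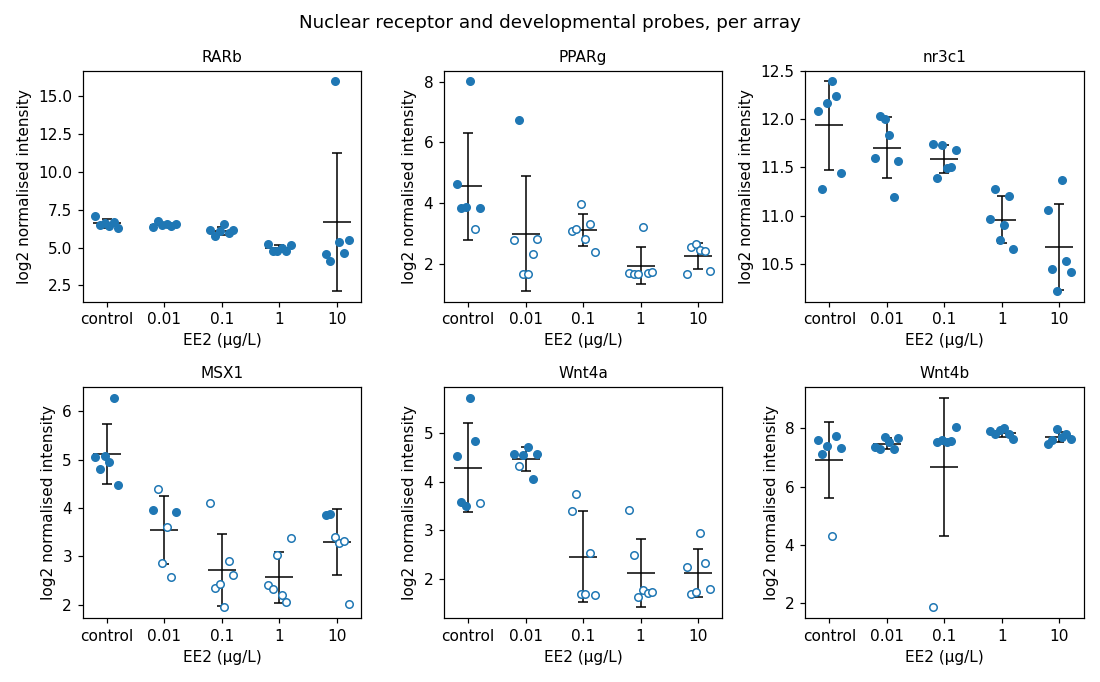
Log2 normalised intensity (y axis) of 6 regulator probes against EE2 in μg/L (x axis), 1 point per array with 6 arrays a group, filled where well above background and open where not, with the group mean and SD in black. RARb has 1 array at 16.00 in the 10 μg/L group, Wnt4a is not detected at 0.1 μg/L and above, and Wnt4b has a low array in the control and at 0.1 μg/L.

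In the protein breakdown group, LC3B and calpains 1 and 2 fell, and the proteasome probes PSMA1 and MSS1 were slightly lower. By Scheffé's criterion the calls of calpain 1, PSMA1 and MSS1 were lost at 1 and at 10 μg/L (adjusted p from 0.06 to 0.531). Those of LC3B and calpain 2 stayed. Of the 10 probes 0, 2, 5 and 7 passed at the 4 concentrations, against 7.91%, 27.2%, 40.9% and 44.2% of all probes. Those called at 0.1 and 1 μg/L were all lower, and at 10 μg/L 2 were higher and 5 lower. Of all probes, 12.8%, 19.8% and 21.7% were higher and 14.3%, 21.2% and 22.5% lower at these 3 concentrations. LC3B, the coat protein of autophagy vesicles, had the smallest F test p of the group. Log2 intensities ran at 13.02 (12.30 to 13.06) in the control, 12.61 (12.47 to 12.73) at 0.01 μg/L, 12.002 (11.49 to 12.11) at 0.1 μg/L, 11.53 (11.16 to 11.59) at 1 μg/L and 11.44 (11.31 to 11.75) at 10 μg/L. Every array at 0.1 μg/L and above lay below every control. LC3B was lower, at -0.96 ± 0.14 (SE, adjusted p = 3.48e-06) at 0.1 μg/L, -1.39 ± 0.14 (SE, adjusted p = 5.32e-09) at 1 μg/L and -1.38 ± 0.14 (SE, adjusted p = 7.24e-09) at 10 μg/L, after a step of -0.72 ± 0.14 (SE, adjusted p = 0.000533) between 0.01 and 0.1 μg/L. Control replicates 2 and 6 were the low controls, at 12.63 and 12.30, and without them LC3B also passed at 0.01 μg/L, with -0.44 ± 0.13 (adjusted p = 0.0199). That call follows from the choice of the controls left out.

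Calpains are proteases switched on by calcium. Calpain 2 had log2 intensities of 12.59 (11.95 to 13.05) in the control, 12.36 (11.99 to 12.57) at 0.01 μg/L, 11.90 (11.49 to 12.76) at 0.1 μg/L, 11.11 (10.39 to 11.95) at 1 μg/L and 10.89 (10.16 to 12.44) at 10 μg/L. It was lower, at -1.38 ± 0.30 (SE, adjusted p = 0.000448) at 1 μg/L and -1.46 ± 0.30 (SE, adjusted p = 0.000226) at 10 μg/L, and calpain 1 was at -0.65 ± 0.23 (SE, adjusted p = 0.0234) and -0.68 ± 0.23 (SE, adjusted p = 0.0161). In both, EE2_10 replicate 4 was the high array of its group, at 12.44 for calpain 2 and 11.60 for calpain 1. Without it the differences at 10 μg/L were -1.73 ± 0.26 (adjusted p = 7.86e-06) and -0.93 ± 0.18 (adjusted p = 0.000157). The calpain 1 calls were lost without control replicate 3 or 5 or EE2_1 replicate 3 at 1 μg/L and without EE2_10 replicate 3 at 10 μg/L (adjusted p up to 0.0637). Calpastatin, their inhibitor, was at -0.51 ± 0.25 (SE, adjusted p = 0.101) at 10 μg/L.

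The cathepsine probe, of the lysosomal proteases by its name, had log2 intensities of 15.001 (14.45 to 15.49) in the control, 14.57 (14.25 to 14.85) at 0.01 μg/L, 15.17 (14.96 to 15.59) at 0.1 μg/L, 15.50 (14.89 to 15.67) at 1 μg/L and 15.30 (15.05 to 16.43) at 10 μg/L. It passed only at 10 μg/L, with 0.55 ± 0.20 (SE, adjusted p = 0.0270), and its step from 0.01 to 0.1 μg/L was 0.69 ± 0.20 (SE, adjusted p = 0.0215). EE2_10 replicate 4, at 16.43, was high, and without it the difference was 0.36 ± 0.17 (adjusted p = 0.0970). The call was also lost without control replicate 2 or 6, without both (0.36 ± 0.21 (adjusted p = 0.168)), without EE2_10 replicate 1, and under 75th percentile scaling (0.33, adjusted p = 0.215). Of the remaining probes, atg4b, the protease that trims LC3, was higher by 0.55 ± 0.19 (SE, adjusted p = 0.0163) at 10 μg/L, lost the call without control replicate 4 or EE2_10 replicate 3, and stood at 0.16 (adjusted p = 0.471) under 75th percentile scaling. PSMA1 and MSS1, subunits of the proteasome, were lower, at -0.44 ± 0.11 (SE, adjusted p = 0.00245) and -0.43 ± 0.14 (SE, adjusted p = 0.0119) at 10 μg/L, and at 1 μg/L the MSS1 call was lost in 16 of the 30 refits that left out 1 array (adjusted p up to 0.118, without EE2_1 replicate 3). The ubiquitin ligase fbx32 passed only at 0.1 μg/L, with -0.55 ± 0.20 (SE, adjusted p = 0.0409), and lost it in 8 of the 30. Without both arrays with a dim middle fbx32 was at -0.55 ± 0.22 (adjusted p = 0.0643), and without control replicates 2 and 6 at -0.52 ± 0.23 (adjusted p = 0.0886). The atg12l probe had its largest difference, -0.33 ± 0.16 (SE, adjusted p = 0.127), at 0.1 μg/L.

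The muscle and development probes that passed were all lower than in the control. Of the 10 probes 2, 4, 5 and 4 passed, against 7.91%, 27.2%, 40.9% and 44.2% of all probes, and 5.09%, 14.3%, 21.2% and 22.5% of all probes were lower. The median log2 difference was -0.30, -0.65, -0.76 and -0.69. MSX1, a homeobox factor of embryonic tissues, was detected on 6 of 6 control arrays, on 2 of 6 at 0.01 and 10 μg/L and on 0 of 6 at 0.1 and 1 μg/L. The medians (lowest to highest) were 5.01 (4.47 to 6.28) in the control, 3.76 (2.56 to 4.39) at 0.01 μg/L, 2.52 (1.94 to 4.10) at 0.1 μg/L, 2.36 (2.05 to 3.39) at 1 μg/L and 3.36 (2.00 to 3.88) at 10 μg/L. All arrays of the 4 exposed groups lay below every control. MSX1 was lower, at -1.56 ± 0.37 (SE, adjusted p = 0.00802) at 0.01 μg/L and -1.82 ± 0.37 (SE, adjusted p = 0.00022) at 10 μg/L, and at least 3.12-fold lower at 0.1 μg/L (adjusted p = 1.08e-05) and at least 2.83-fold lower at 1 μg/L (adjusted p = 3.28e-06). Without control replicate 5 these 2 bounds fell to 2.65-fold and 2.41-fold. With normexp background correction the fitted log2 differences shrank to between -0.58 and -0.43 and all 4 passed.

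Wnt4a, a paralogue of the signal that in mammals takes part in ovary formation, was detected on 5 of 6 arrays in the control and at 0.01 μg/L and on none above. Across the groups it read 4.06 (3.49 to 5.74) in the control, 4.57 (4.06 to 4.72) at 0.01 μg/L, 2.11 (1.67 to 3.75) at 0.1 μg/L, 1.75 (1.63 to 3.42) at 1 μg/L and 2.02 (1.68 to 2.95) at 10 μg/L. The drop lay between 0.01 and 0.1 μg/L, with a fitted step of -2.02 ± 0.39 (SE, adjusted p = 0.00063). As a bound, Wnt4a was at least 1.88-fold lower at 0.1 μg/L, at least 1.80-fold at 1 μg/L and at least 2.33-fold at 10 μg/L. Without control replicate 4, the highest control, these bounds fell to 1.54-fold, 1.48-fold and 1.90-fold. The fitted differences, not the bounds, had adjusted p of 0.00068, 7.22e-05 and 6.29e-05. The fitted log2 differences, -1.84, -2.17 and -2.18 here, were -0.26, -0.35 and -0.31 with normexp background correction, all past the threshold. Wnt4b, the other paralogue, was detected on every array but control replicate 4 (4.31) and EE2_0.1 replicate 1 (1.86), both dim in the middle. Its log2 intensities were 7.35 (4.31 to 7.74) in the control, 7.43 (7.28 to 7.70) at 0.01 μg/L, 7.54 (1.86 to 8.04) at 0.1 μg/L, 7.85 (7.61 to 7.99) at 1 μg/L and 7.67 (7.45 to 7.97) at 10 μg/L. Wnt4b did not pass with all arrays, with 0.92 ± 0.67 (SE, adjusted p = 0.280) at 1 μg/L. Without these 2 arrays it was higher by 0.40 ± 0.13 (adjusted p = 0.0140) at 1 μg/L and stood at 0.26 ± 0.13 (adjusted p = 0.0991) at 10 μg/L. Whether the responses of the paralogues differ was not tested.

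The probe named "Slow", with the rest of the name cut, had log2 intensities of 11.27 (10.87 to 11.92) in the control, 10.54 (10.13 to 11.45) at 0.01 μg/L, 9.92 (9.32 to 10.28) at 0.1 μg/L, 10.31 (9.83 to 10.83) at 1 μg/L and 10.78 (10.13 to 11.01) at 10 μg/L. All arrays at 0.1 and 1 μg/L lay below every control. It was lower, at -0.69 ± 0.22 (SE, adjusted p = 0.0470), -1.46 ± 0.22 (SE, adjusted p = 7.26e-06), -1.0 ± 0.22 (SE, adjusted p = 0.000561) and -0.61 ± 0.22 (SE, adjusted p = 0.0234), with the lowest mean at 0.1 μg/L. The call at 0.01 μg/L was lost in 19 of the 30 refits that left out 1 array (adjusted p up to 0.128, without control replicate 5), and that at 10 μg/L without control replicate 5 or EE2_10 replicate 4. A second probe written "slow" was detected on 3 to 6 arrays a group and reached 0.71 ± 0.32 (SE, adjusted p = 0.0763) at 10 μg/L. Scleraxis, a regulator of tendon formation, has 2 probes, which passed at different concentrations. Whether the 2 differ was not tested. The probe spelled "scleraxis" passed only at 0.1 μg/L, with -0.62 ± 0.22 (SE, adjusted p = 0.0330), and lost the call in 7 of the 30 refits, without control replicates 2 and 6 (-0.54 ± 0.23 (adjusted p = 0.0818)) and with normexp background correction (-0.29, adjusted p = 0.0905). The probe spelled "scl?raxis" was lower, at -0.99 ± 0.25 (SE, adjusted p = 0.00207) at 1 μg/L and -0.97 ± 0.25 (SE, adjusted p = 0.00224) at 10 μg/L. Sox5, a transcription factor of cartilage, was detected on 6 of 6 control arrays and 1 of 6 at 1 μg/L, where it passed with -1.0 ± 0.33 (SE, adjusted p = 0.0162). The call was lost without EE2_1 replicate 3 and with normexp background correction (-0.21, adjusted p = 0.111), and the level at 1 μg/L rests on signals near background. Pax7, the factor of muscle stem cells, and skelemin, a muscle protein, were detected on at most 3 arrays of any group and did not pass.

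The names of 2 probes give no function. The probe called "trout" had log2 intensities of 10.06 (9.63 to 11.33) in the control, 9.87 (9.42 to 10.54) at 0.01 μg/L, 9.31 (8.77 to 10.12) at 0.1 μg/L, 8.62 (8.47 to 8.96) at 1 μg/L and 8.55 (8.30 to 8.91) at 10 μg/L. All arrays at 1 and 10 μg/L lay below every control, and it was lower, at -0.88 ± 0.23 (SE, adjusted p = 0.00512), -1.55 ± 0.23 (SE, adjusted p = 6.38e-06) and -1.62 ± 0.23 (SE, adjusted p = 3.18e-06) at 0.1, 1 and 10 μg/L. The "Serine" probe did not pass against the control and stepped up by 0.76 ± 0.25 (SE, adjusted p = 0.0493) between 0.01 and 0.1 μg/L.

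The 160 candidates known only by an accession or a read name held the largest changes of the set. Of them 24, 58, 73 and 72 passed at the 4 concentrations, which is 15%, 36.3%, 45.6% and 45%. Among all probes 7.91%, 27.2%, 40.9% and 44.2% passed, so at 10 μg/L the share lay close to that of the array. Those higher were 6, 23, 23 and 25, against 2.83%, 12.8%, 19.8% and 21.7% of all probes. Their log2 differences reached from -9.36 at 1 μg/L to 10.3 at 10 μg/L. The probe CU073100.s.om.10 had the largest fitted rise, with log2 intensities of 3.10 (1.80 to 5.45) in the control, 3.86 (3.07 to 5.09) at 0.01 μg/L, 6.49 (5.15 to 7.60) at 0.1 μg/L, 11.06 (8.30 to 13.90) at 1 μg/L and 13.81 (11.84 to 14.49) at 10 μg/L. It was detected on 1 of 6 control arrays and on 6 of 6 from 0.1 μg/L, so the control level is near background and the size of the fitted rise is uncertain. The probe was higher by 3.28 ± 0.72 (SE, adjusted p = 0.000837) at 0.1 μg/L, 7.98 ± 0.72 (SE, adjusted p = 8.48e-10) at 1 μg/L and 10.30 ± 0.72 (SE, adjusted p = 5.98e-12) at 10 μg/L. With normexp background correction the value at 0.1 μg/L was 1.09 and did not pass (adjusted p = 0.177), and that at 1 μg/L was 5.04.

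AY319390.1 was the probe with the deepest fall, with log2 intensities of 13.50 (13.30 to 14.40) in the control, 10.70 (9.61 to 11.10) at 0.01 μg/L, 6.10 (3.40 to 6.94) at 0.1 μg/L, 4.73 (2.33 to 5.72) at 1 μg/L and 5.03 (3.93 to 7.60) at 10 μg/L. All exposed arrays lay below every control, already at 0.01 μg/L. It was detected on 6 of 6 control arrays and on 3 of 6 at 1 μg/L. It was lower, at -3.16 ± 0.64 (SE, adjusted p = 0.00235), -7.92 ± 0.64 (SE, adjusted p = 1.56e-10), -9.36 ± 0.64 (SE, adjusted p = 4.04e-12) and -8.25 ± 0.64 (SE, adjusted p = 5.75e-11). Signals at 1 μg/L are near background, so the size of the fall there is uncertain. Over the alternatives it lay between -9.66 and -6.95. BX305093.s.om.10 had the smallest F test p of the 217, with log2 intensities of 14.78 (14.26 to 15.02) in the control, 12.72 (12.45 to 13.11) at 0.01 μg/L, 9.36 (9.15 to 9.64) at 0.1 μg/L, 9.12 (8.90 to 9.64) at 1 μg/L and 9.80 (9.25 to 10.11) at 10 μg/L. Its groups at 0.01 μg/L and above did not overlap the control, and it was lower, at -1.93 ± 0.16 (SE, adjusted p = 1.44e-08), -5.30 ± 0.16 (SE, adjusted p = 3.13e-19), -5.51 ± 0.16 (SE, adjusted p = 5.36e-20) and -4.92 ± 0.16 (SE, adjusted p = 4.62e-19). The other 3 of the 5 candidates with the smallest F test p, beside BX305093.s.om.10 and CU073100.s.om.10, are also known only by an accession and were lower, with log2 differences of -5.53, -4.74 and -7.60 at 10 μg/L. The last of these differences lay between -7.79 and -5.81 over the alternatives. Of the 3 probes with the largest F test p among those detected on every array, 2 were known only by an accession, with F test adjusted p of 0.917 and 0.730, and the third was RARb with its marked spot. Which genes these probes stand for is not known from the sources used here, and no probe sequence is shown because the files used here hold none.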

How the data were processed

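RNA from pools of gonads was labelled with 1 dye and hybridised to Agilent arrays of 60195 non-control probes. Per the file headers, the deposited scanner files hold the processed signal intensity made by Agilent Feature Extraction 10.7.3.1, with the background taken off and on a linear scale, together with marks for spots well above background, saturated spots and outlier spots. The deposited value table holds log2 values that the authors made from the same intensities by quantile normalisation in R 2.15.3, and it was used as an alternative. There, 3 pairs of columns matched the scanner file of the other array of the pair, within the same concentration (control replicates 2 and 4, EE2_0.1 replicates 1 and 6, EE2_10 replicates 4 and 5). Means by concentration do not depend on this, but each pair crosses tanks, and which of the names is right is not given in the sources used here. The replicate names, tank means and blocks follow the scanner files.

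Here the processed signal was taken to log2 and quantile normalised over the 30 arrays, and limma 3.58.1 (R 4.3.3) was fitted on all 60195 probes with 1 mean for each concentration. Each concentration was compared with the control and with the next one, with Benjamini-Hochberg adjustment over all probes and a threshold of 0.05, and a moderated F test covered the 4 comparisons with the control. These 4 comparisons share their 6 controls, so a control that stands apart enters all of them, and their calls are not independent of each other. Differences are treated minus control, or higher minus lower concentration, on the log2 scale. Both pools of a tank entered as separate samples, and the consensus correlation of such pools was 0.045.

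A probe not well above background on any array of a group has only a bound there. Folds written "at least" compare the mean of the brighter group with, on each array of the other, the higher of the probe's own value and the lowest signal of any probe well above background. The adjusted p given with such a fold is that of the fitted difference, and no bound was tested. Levels were compared within a probe only. Spots marked as outliers were left out of a probe's mean unless all its spots on that array were marked. Each candidate has 1 spot, so its marked spots were kept.

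By the rule for named probes, values were given for any name found in the marker lists, for the 3 probes of each function group with the largest difference from the control among those past the F test, for the 5 candidates with the smallest F test p, and for the 3 with the largest among those well above background on every array. Any other is named only to account for its group, and of the accession-only candidates no more than 2 that fell are named. The candidates, their function groups and the rule were chosen with earlier results of these data known. Alternatives were 75th percentile scaling, normexp background correction (offset 50), the deposited log2 values, a filter on dim probes, the slide, the tank or the replicate number as a block, tank means, array weights, Scheffé's criterion and leaving out arrays or marked spots. Normexp used the median spot signal, because the scanner files have no column of mean spot signal. The fit was tested on simulated data of 60195 probes before use, where in the comparison of 1 μg/L with the control it called 50 of 100 probes changed by 1 on the log2 scale, 86 of 100 changed by 2, and 7 unchanged probes. Far fewer probes were changed there than differed in these data, so these rates do not carry over to them. The number of arrays limits the precision of every value.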

Additional observations from a re-analysis of the deposited data

Results flagged for a closer look

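Only the probes picked by the rule for named probes were examined here, in 160 groups of 6 arrays. In 15 of these groups, 1 array lay apart from the other 5 by Dixon's criterion at its 95% critical value, which chance exceeds in about 1 of 20 groups. The list is therefore not complete. Among probes not examined, Acyl-coenzyme, elov12 and cyp1a3 read 1.86, 3.37 and 1.86 on EE2_0.1 replicate 1, and skelemin read 8.95 on EE2_0.1 replicate 2. All values are log2 normalised intensities, and no cause was tested. Control replicate 4 stood apart for PPARg (8.01, the others from 3.14 to 4.64), glucose transporter 1 (7.95, the others from 6.65 to 7.14), Wnt4b (4.31, the others from 7.13 to 7.74) and CA352728.s.om.10, which did not pass in any comparison (8.67, the others from 7.29 to 7.71). Control replicate 5 stood apart for rhbg2a (4.50, the others from 1.74 to 2.68) and MSX1 (6.28, the others from 4.47 to 5.08). At 0.01 μg/L, PPARg read 6.73 on replicate 2 (the others from 1.67 to 2.80) and rhbg2a read 3.69 on replicate 4 (the others from 1.78 to 2.37). At 0.1 μg/L, Wnt4b read 1.86 on replicate 1 (the others from 7.52 to 8.04) and a candidate known only by an accession read 13.70 on replicate 3 (the others from 12.28 to 12.75). At 1 μg/L, PPARg read 3.21 on replicate 4 (the others from 1.66 to 1.74), where no array was well above background. At 10 μg/L, RARb read 16.00 on replicate 3 (the others from 4.08 to 5.51) and carnitine 11.11 on replicate 2 (the others from 7.81 to 8.86), both from spots marked as outliers by the scanner software. In the same group HPGPX1 read 13.88 on replicate 4 (the others from 14.67 to 14.83) and MSX1 read 2.00 on replicate 6 (the others from 3.27 to 3.88).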

How the results depend on the processing

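Past the threshold were 104 differences of probes with a gene name or of accession-only candidates picked by the rule. Of these, 64 stayed past it in the same direction under all 43 alternatives, 40 lost it under at least 1 and 0 turned their direction. The accession-only candidates had been picked for a small F test p or a large difference, which favours their staying past it. All of the 40 were of gene-named probes except AY319390.1 at 0.01 μg/L and CU073100.s.om.10 at 0.1 μg/L. Scheffé's criterion ended 39 of the 104, 75th percentile scaling and tank means 10 each, and the deposited log2 values and the filter on dim probes 0. Among the calls that Scheffé's criterion ended were all 6 of gene-named probes at 0.01 μg/L, MSX1 included. It also ended every call of calpain 1, PSMA1, MSS1, atg4b, cathepsine, fbx32, elov12, "delta", LDL, Glut2, GPX1, Sox5, "scleraxis" and "scl?raxis". The 30 candidates called at 0.01 μg/L became 19 with tank means, 58 with array weights, 49 without control replicates 2 and 6 and 8 with Scheffé's criterion, which gave 39, 58 and 61 at 0.1, 1 and 10 μg/L in place of 74, 102 and 103. Under normexp correction 6.9% of the 29 candidates called at 0.01 μg/L were higher, in place of 20.0%. Between 0.1 and 1 μg/L the 20 became 13 with tank means and 46 with array weights, and between 1 and 10 μg/L array weights called 8. Leaving out each array in turn gave 109 to 122 candidates by the F test, 19 to 41 at 0.01 μg/L, 63 to 75 at 0.1 μg/L, 92 to 107 at 1 μg/L, 99 to 109 at 10 μg/L, 26 to 38 between 0.01 and 0.1 μg/L, 8 to 30 between 0.1 and 1 μg/L and 0 between 1 and 10 μg/L. Under 75th percentile scaling, calls at 0.01 μg/L ended for phosphoenolpyruvate (adjusted p = 0.0546), SOD2 (0.0651), Nrf2 (0.0725) and Slow (0.0806). The tank was the exposed unit. Tank means ended calls at 0.01 μg/L for phosphoenolpyruvate (adjusted p = 0.0935), Catalase (0.0737), SOD2 (0.0831) and Nrf2 (0.0688). At 0.1 μg/L they ended those of fbx32 (0.143) and scleraxis (0.0503). At 1 μg/L elov12 (0.0574), MSS1 (0.0997) and PPARa (0.147) were lost, and at 10 μg/L LDL (0.119). The uncalled RARb difference at 10 μg/L, 0.11, turned to -0.20 with 75th percentile scaling, -0.069 with slide as a block and -1.75 without its marked spot, and lay between -1.75 and 0.63 with 1 array left out. The uncalled difference of CA352728.s.om.10 there, 0.15, turned to -0.019 with 75th percentile scaling.

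Replicate numbers did not pair the arrays: deviations of arrays with the same number had a mean correlation of 0.025 (from -0.46 to 0.43), and 3 of 30 arrays lay closest to their own number. With the number as a replicate block 120 candidates passed the F test, and 29, 75, 102 and 105 passed at the 4 concentrations. It ended 1 of the 104 calls, that of MSS1 at 1 μg/L (adjusted p = 0.0507). Signals near background limit the values of rhbg2a, VLDL, PPARg, MSX1, Wnt4a, Sox5, Glut2, CU073100.s.om.10 and AY319390.1. Normexp correction on the mean spot signal was planned and not run.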
